A study of Mus musculus with 2 samples.

Results

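Ret, Ednra, Ednrb, Edn1, Erbb2, Erbb3 and Nrg1 encode 5 cell surface receptors and 2 of the ligands through which neural crest cells (NCCs) and the tissues around them signal. They were chosen as a named set by what they encode, with earlier results of these data known, and all 7 were found among the 18131 genes of the data. The question put to the data was where each receptor and ligand was detected in the cardiac neural crest region, and how its level compared between embryos with and without Prdm6 in the Wnt1 lineage.

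Single cells came from C57BL/6 mouse embryos at E9.5, from tissue that ran from mid otic placode back to the posterior edge of somite 4. Embryos of the WT library were Prdm6+/+; Wnt1-Cre2; ZsGreen1. Those of the KO library were Prdm6f/f; Wnt1-Cre2; ZsGreen1. Both genotypes carried the Wnt1-Cre2 transgene, which drives Cre recombinase in the Wnt1 lineage, and ZsGreen1, a green fluorescent reporter. By this design, deletion of the floxed allele was directed to that lineage. The tissue was not described as sorted, and both libraries held cells of many other lineages. Each genotype was 1 library, with no map from cells to embryos used here. With 1 library on each side, no statistical test was run, and differences are given as sizes with counting intervals.

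In the embryo, endothelin ligands such as Edn1 act on the G protein-coupled receptors encoded by Ednra and Ednrb. Signals through Ednra pattern the crest-derived mesenchyme of the pharyngeal arches, and Ednrb is needed by crest cells that form pigment cells and enteric neurons. Neuregulin 1, the product of Nrg1, binds Erbb3, which has little kinase activity of its own and works as a dimer with Erbb2; this pair is used by migrating crest and Schwann cell precursors. In the heart, neuregulin from the endocardium acts on Erbb2 and Erbb4 of the myocardium. Ret is the receptor tyrosine kinase for the GDNF family of ligands and needs a Gfra coreceptor, and it is used by enteric and autonomic neuron precursors.

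The WT library held 11958 cells and 20781384 unique molecular identifiers (UMIs, each 1 captured RNA molecule), with a median of 1597 UMIs per cell. The KO library held 9765 cells and 18936857 UMIs, with a median of 1703. The libraries shared 26 cell barcodes. Prdm6 itself had 104 UMIs in WT and 59 in KO (log2 of KO over WT -0.68, -1.17 to -0.21), and only 2 in each library lay in migrating NCCs, so the deletion could not be checked there. Most of its UMIs lay in other cells. Cells like cardiac muscle had 40 and 30, those like splanchnic mesoderm 15 and 4, and cells placed in no class 32 and 15. The cause of the lower KO counts was not tested. Levels are given as UMIs of the gene per 1000000 UMIs of all genes in the same class and library (CPM), with 95% intervals by the exact Poisson method, and the ratio of KO over WT as log2 with an exact conditional interval of 95%. All intervals cover counting error only and leave out the spread between embryos and libraries.

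Cells were placed into 16 classes by marker genes, none of which was among the 7 genes, and 13 classes had at least 50 cells in each library. Where classes are put in order, these 13 are ranked by their level pooled over both libraries, so the order within 1 library can differ. A class name states which markers its cells held and means cells like that type. The 253 WT and 201 KO cells of the migrating NCC class held at least 2 of 7 markers, among them Sox10, Foxd3 and Tfap2b, and all 7 were raised there. Of these cells 48.2% in WT and 48.8% in KO lay exactly at the minimum of 2 markers, and 12.6% and 13.9% also held at least 2 of the epithelial genes Epcam, Cldn6, Cldn7, Cdh1 and Esrp1. The same epithelial genes were held by 1.07% of WT and 0.488% of KO erythroid cells. The arch mesenchymal NCC class, with 102 and 108 cells, rested on exactly 2 markers in 89.2% and 90.7% of them. None of the 10 leading genes of the pharyngeal endoderm class was one of its own markers. The gates left 51.2% of WT and 51.3% of KO cells without a class.

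The cardiac muscle class was loose as first set. It asked for 3 markers and took 2256 WT and 2222 KO cells, but 42 of 559 WT and 26 of 205 KO erythroid cells also held 3 cardiac markers, and 0 held 6. Several values for cardiac muscle are therefore given also for the 632 WT and 381 KO cells with at least 6 markers, a setting chosen after this was seen.

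Edn1, the ligand of Ednra and Ednrb (GRCm38 chromosome 13, 42301476 to 42307990, plus strand), had 173 UMIs in WT and 184 in KO. Its highest level lay in pharyngeal mesoderm-like cells, at 156 CPM (89.1 to 253) from 16 WT UMIs and 113 CPM (70.5 to 170) from 22 KO UMIs. These cells were gated on Isl1, Tbx1, Tcf21, Msc, Fgf10 and Lhx2, and 84.3% of them in WT and 85.5% in KO lay at the minimum of 2 markers. Of the markers only Tbx1 was among the 10 leading genes of the class. At least 2 epithelial genes were held by 11.8% and 10.8% of the cells, and Epcam stood at 107 and 123 CPM against 64.7 and 73.2 CPM over all cells. They held 0.494% of the WT library and 9.25% of its Edn1 UMIs, and 1.03% of the KO library and 12% of its Edn1 UMIs.

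Pharyngeal endoderm-like cells came next for Edn1, at 46.4 CPM from 7 UMIs in WT and 91.4 CPM from 13 UMIs in KO. The level in the mesoderm class was above that in the endoderm class in WT (log2 1.75, 0.39 to 3.27), whereas in KO the interval of the same difference included 0 (0.30, -0.75 to 1.41). With cells holding 2 epithelial genes left out, the pharyngeal mesoderm class kept 13 WT and 21 KO Edn1 UMIs, at 152 and 124 CPM. Epcam was then 46.9 CPM in WT but still 101 CPM in KO, so this step did not clear the KO class of epithelial RNA. The mesenchymal gene Pdgfra stood at 263 CPM in the whole WT class and 76.7 CPM in the KO class, against 134 and 110 CPM over all cells. The WT and KO classes were thus unlike in these genes. For Edn1, endothelial cells were the next class, at 22.5 CPM (15.1 to 32.3) in WT and 22.4 CPM (14.7 to 32.9) in KO.

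Edn1 was near or at 0 in the crest itself. Migrating NCCs had 0 Edn1 UMIs in 253 WT cells, which by the floor of 3 counts allows a share of up to 1.19% of cells with a UMI, and 1 UMI in 201 KO cells. Arch mesenchymal NCCs had 0 UMIs in WT and 1 in KO. By count, most Edn1 UMIs lay elsewhere: cells with no class held 65 of 173 in WT and 75 of 184 in KO, and cardiac muscle, at 7.94 and 6.23 CPM, held 34 and 28. In cells with 6 cardiac markers it was 5.85 and 4.50 CPM.

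Nrg1, the neuregulin ligand (chromosome 8, 31814551 to 32884029, minus strand), had 246 UMIs in WT and 256 in KO. Pharyngeal mesoderm-like cells had the highest level over both libraries, but this was 29.2 CPM (6.03 to 85.5) from 3 WT UMIs and 61.4 CPM (31.7 to 107) from 12 KO UMIs. Neuron-like cells followed at 42 CPM from 12 WT UMIs and 30.9 CPM from 11 KO UMIs. Endothelial cells followed, at 26.4 CPM (18.3 to 36.8) from 34 WT UMIs and 34.5 CPM (24.7 to 47) from 40 KO UMIs. None of these 3 classes differed from its neighbour in this order beyond counting error in either library.

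Within endothelial cells, Nrg1 lay mostly in those with an endocardial marker, Nfatc1, Npr3 or Hapln1, the cells that line the heart. In WT 31 of 34 endothelial UMIs were in the endocardial subset, at 33.1 CPM against 8.48 CPM in the other endothelial cells (log2 1.96, 0.28 to 4.32). In KO 35 of 40 were, at 39.4 against 18.5 CPM, with an interval that included 0 (1.09, -0.27 to 2.80). The endocardial cells were also deeper, with a median of 2242.5 UMIs in WT and 2794.5 in KO against 1753 and 1898 in the other endothelial cells, and the part of depth in this contrast was not tested. Migrating NCCs had 9 Nrg1 UMIs in WT and 2 in KO.

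**Figure D1:**
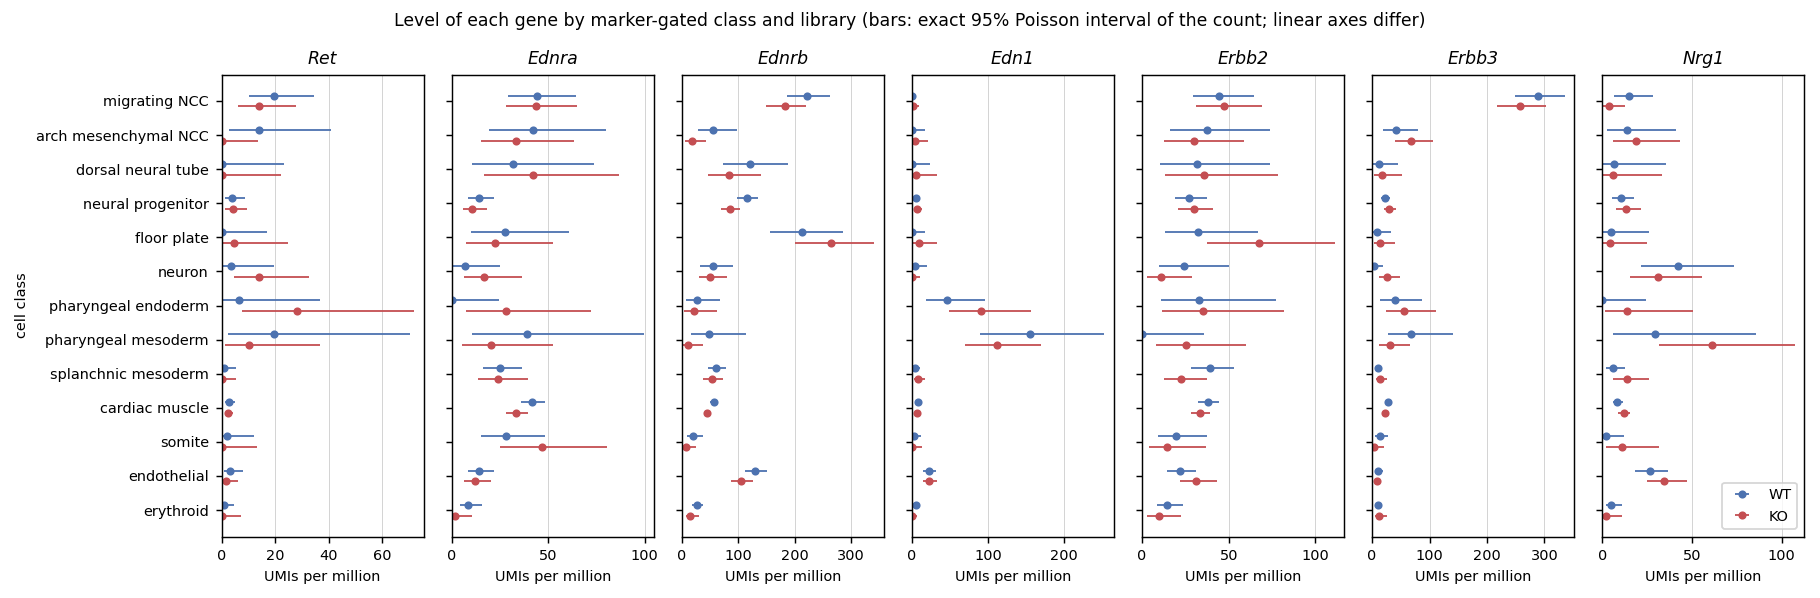
Level of the 7 genes in CPM (x axes, linear and different for each gene) in the 13 marker-gated classes with at least 50 cells in each library (rows), for WT (blue) and KO (red). Points are levels per class and bars are exact Poisson intervals of 95%. Erbb3 stands apart in migrating NCCs (289 CPM in WT and 258 in KO), Ednrb is high in migrating NCCs and floor plate, Edn1 in the pharyngeal classes, and Ednra and Erbb2 are spread over many classes.

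Erbb3, the neuregulin receptor (chromosome 10, 128567523 to 128589652, minus strand), had the most crest-centred pattern of the 5 receptors. It had 741 UMIs in WT and 610 in KO. Migrating NCCs held 176 of the WT UMIs (289 CPM, 248 to 335) and 147 of the KO UMIs (258 CPM, 218 to 303). These cells carried 2.93% and 3.01% of all UMIs but 23.8% and 24.1% of the Erbb3 UMIs. Although it was no gate marker, Erbb3 was among the 10 leading genes of this class.

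Next in order for Erbb3, among the 13 classes with at least 50 cells, were arch mesenchymal NCCs, at 42.1 CPM from 9 WT UMIs and 67.1 CPM from 18 KO UMIs. Migrating NCCs lay above them in both libraries (log2 2.78, 1.82 to 3.93 in WT, and 1.94, 1.23 to 2.74 in KO). Pharyngeal endoderm, pharyngeal mesoderm, neural progenitor and cardiac muscle cells averaged 24.5 to 47.7 CPM over both libraries, and neighbours among them did not differ beyond counting error, except pharyngeal mesoderm over neural progenitor in WT (1.61, 0.17 to 2.82). Cardiac muscle lay above neurons, the next class, in WT (2.97, 0.46 to 8.28), where neurons had 1 UMI, but not in KO (-0.22, -1.20 to 0.96). Somite, the lowest class in the pooled order, stood at 13.1 CPM in WT, where 6 other classes were lower, and at 3.62 CPM in KO.

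A share of the Erbb3 signal outside the crest was epithelial. The 326 WT and 239 KO cells with no class but at least 2 epithelial genes, a group formed after the data were seen, had 120 CPM (96 to 148) from 87 UMIs and 109 CPM (84.8 to 138) from 68 UMIs. Otic and epibranchial placode-like cells, only 21 in WT and 14 in KO, had 210 CPM (101 to 387) from 10 UMIs and 200.4 CPM (86.5 to 395) from 8, wide intervals that take in the level of migrating NCCs. In migrating NCCs without 2 epithelial genes, 145 WT and 126 KO Erbb3 UMIs remained, at 276 and 260 CPM, so the high level of the class did not rest on those cells.

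In the erythroid class, which is not known to use Erbb3, the level was 10.3 CPM in WT and 11.6 CPM in KO. Of migrating NCCs 44.7% (38.4 to 51) in WT and 43.3% in KO held an Erbb3 UMI, against 2.15% and 2.93% of erythroid cells. The median depths were 2358 and 2940 UMIs in migrating NCCs and 1994 and 2450 in erythroid cells. With each cell thinned to 1000 UMIs the shares were 23.1% and 22.9% in migrating NCCs and 1.48% and 1.47% in erythroid cells. Thinning left out 1361 WT and 125 KO cells of all classes that had fewer UMIs.

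Erbb2, the partner kinase of Erbb3 (chromosome 11, 98412470 to 98437716, plus strand), was spread far more evenly, with 606 UMIs in WT and 534 in KO. Migrating NCCs had 27 UMIs in each library, at 44.4 CPM (29.2 to 64.6) in WT and 47.4 CPM (31.2 to 68.9) in KO. Floor plate-like cells had 32.6 CPM from 7 WT UMIs and 67.3 CPM from 15 KO UMIs, which put them first of the 13 classes over both libraries with an interval against migrating NCCs that included 0 in each (-0.45, -1.89 to 0.79 in WT, and 0.51, -0.51 to 1.47 in KO). No neighbouring classes in the order of Erbb2 levels differed beyond counting error in either library. Cardiac muscle stood at 37.8 CPM in WT and 33.6 CPM in KO, and cells with 6 cardiac markers at 52.7 CPM (41.8 to 65.5) and 62.2 CPM (48.4 to 78.7). Surface ectoderm-like cells, 29 in WT and 51 in KO, had 92.9 CPM (34.1 to 202) from 6 UMIs and 30.9 CPM (8.42 to 79.2) from 4.

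Erythroid cells were last in the pooled order for Erbb2, with 14.6 CPM in WT and 9.68 CPM in KO, although in WT pharyngeal mesoderm-like cells had 0 UMIs. Migrating NCCs lay above them by log2 1.60 (0.68 to 2.57) in WT and 2.29 (0.89 to 4.02) in KO. The share of migrating NCCs with an Erbb2 UMI was 3.59% in WT and 4.98% in KO after thinning, against 2.03% and 0.98% of erythroid cells, so at this depth few single cells could be called positive for Erbb2.

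Ednra, the endothelin type A receptor (chromosome 8, 77663031 to 77724464, minus strand), had 576 UMIs in WT and 514 in KO. Migrating NCCs had 44.4 CPM (29.2 to 64.6) from 27 WT UMIs and 43.9 CPM (28.4 to 64.8) from 25 KO UMIs. Cardiac muscle had 41.6 CPM (35.7 to 48.2) in WT and 33.6 CPM (28.4 to 39.4) in KO. Arch mesenchymal NCCs, in which Ednra signals are known to pattern the jaw, had 42.1 CPM and 33.5 CPM from 9 UMIs in each library. The 5 highest classes, which also included dorsal neural tube and somite, did not differ from their neighbours beyond counting error.

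In the groups added later Ednra levels were somewhat higher, but their intervals overlapped those of migrating NCCs, 29.2 to 64.6 in WT and 28.4 to 64.8 in KO. Migrating NCCs without 2 epithelial genes stood at 49.4 CPM in each library. Cells with 6 cardiac markers had 59.8 CPM (48.2 to 73.4) in WT and 50.4 CPM (38.1 to 65.5) in KO. Cells with no class but at least 2 of the mesenchymal genes Pdgfra, Foxd1 and Stra6, 473 in WT and 323 in KO and also formed after the data were seen, had 49.9 CPM (36.4 to 66.8) and 61.9 CPM (45 to 83.1). Erythroid cells had 10 Ednra UMIs in WT and 1 in KO. Endothelial cells were low too, at 14 CPM and 12.1 CPM, and neural progenitors at 14.2 CPM and 10.7 CPM.

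Ednrb, the endothelin type B receptor (chromosome 14, 103814625 to 103844402, minus strand), had the most UMIs of the 7 genes, 1472 in WT and 1058 in KO. Floor plate-like cells, the ventral midline of the neural tube gated on genes such as Shh, Ntn1 and Spon1, had 214 CPM (157 to 285) from 46 WT UMIs and 265 CPM (202 to 341) from 59 KO UMIs. Migrating NCCs had 222 CPM (186 to 263) from 135 WT UMIs and 182 CPM (149 to 221) from 104 KO UMIs. The interval of their difference included 0 in WT (log2 of floor plate over migrating NCC -0.05, -0.57 to 0.44), and in KO the interval lay just above 0 (0.54, 0.05 to 1.01). The KO difference was not stable to the gate: it was 0.06 with 1 more marker, 0.08 without Sox10 in the migrating NCC gate, -0.13 without the most detected marker and 0.0040 with thinned cells.

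Migrating NCCs lay above endothelial cells, the next class for Ednrb, in both libraries (log2 0.77, 0.43 to 1.10 in WT, and 0.79, 0.40 to 1.18 in KO). Endothelial cells stood at 130 CPM in WT and 105 CPM in KO, dorsal neural tube at 121 and 84 CPM, and neural progenitors at 116 and 85 CPM, and neighbours among these did not differ beyond counting error. Neural progenitors in turn lay above splanchnic mesoderm (0.92, 0.49 to 1.36 in WT, and 0.68, 0.12 to 1.28 in KO). Somite cells had the lowest level, 19.7 CPM in WT and 7.23 CPM in KO.

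As for Nrg1, the endothelial signal of Ednrb lay mostly in the endocardial subset. It had 154 CPM (130 to 181) in WT against 67.9 CPM in the other endothelial cells (log2 1.18, 0.55 to 1.87). In KO the values were 119 and 59.3 CPM (1.01, 0.24 to 1.87). The 8 UMIs of the WT cell and the 5 of the KO cell with most Ednrb were both in endothelial cells. Erythroid cells had 26.6 CPM in WT and 15.5 CPM in KO. After thinning an Ednrb UMI was held by 17.5% of floor plate cells in WT and 17.8% in KO, by 17.1% and 14.9% of migrating NCCs, and by 3.32% and 1.96% of erythroid cells.

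Ret, the GDNF family receptor (chromosome 6, 118151745 to 118197718, minus strand), was the scarcest, with 94 UMIs in WT and 97 in KO, and at most 3 in any cell. Migrating NCCs had 12 WT UMIs (19.7 CPM, 10.2 to 34.4) and 8 KO UMIs (14 CPM, 6.06 to 27.7). Their level was above the pooled CPM of all other cells (log2 2.28, 1.27 to 3.16 in WT, and 1.53, 0.28 to 2.58 in KO). Pharyngeal endoderm-like cells had 1 UMI in WT and 4 in KO, and the pooled level of 17.1 CPM placed them level with migrating NCCs at 17 CPM, at the top of the 13 classes with at least 50 cells. The order of these 2 classes was opposite in the 2 libraries, and neither difference was beyond counting error.

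Ret UMIs outside these classes were spread over many groups. In WT 12 UMIs lay in cardiac muscle (2.80 CPM) and in KO 11 (2.45 CPM), but cells with 6 cardiac markers held only 2 and 0. Cells with no class held 47 and 56. The CPM level was above that of cardiac muscle in epithelial and placodal cells. Cells with no class but 2 epithelial genes had 15.2 CPM from 11 WT UMIs and 27.3 CPM from 17 KO UMIs, and otic and epibranchial placode-like cells had 84.1 CPM (22.9 to 215) from 4 UMIs in 21 WT cells and 50.1 CPM (6.07 to 181) from 2 UMIs in 14 KO cells. Erythroid cells had 1 UMI in WT and 0 in KO.

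Receptor pairs were then compared within each class by the share of their joint UMIs that came from the first of the pair. This share does not depend on the depth of the class, and it was read only between classes, since 3′ capture can differ between genes. Ednra made up 16.7% (11.3 to 23.3) of the Ednra and Ednrb UMIs of migrating NCCs in WT and 19.4% (13 to 27.3) in KO. It made up 11.5% and 7.81% in floor plate, 10.9% and 11.2% in neural progenitors, and 9.68% and 10.3% in endothelial cells. In the mesenchymal cells without a class it was 61.6% (49.5 to 72.8) in WT and 69.8% (57 to 80.8) in KO. In cells with 6 cardiac markers it was 63.4% (55.1 to 71.3) and 65.1% (54.1 to 75.1). Endothelin receptor UMIs were thus mostly Ednrb in migrating NCCs, floor plate, neural progenitors and endothelial cells. They were mostly Ednra in the mesenchymal cells and in those with 6 cardiac markers, and the intervals of the former did not overlap those of the latter in either library. The cardiac class as first set, with 3 markers, was mostly Ednrb, with Ednra at 42.3% (37.5 to 47.2) in WT and 42.9% (37.7 to 48.3) in KO, so the statement on heart muscle rests on the stricter gate. Splanchnic mesoderm was mostly Ednrb too, with Ednra at 28.9% and 31.4%, while somite cells were mostly Ednra, from few UMIs, at 59.1% (36.4 to 79.3) in WT and 86.7% (59.5 to 98.3) in KO.

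Arch mesenchymal NCCs lay between, with Ednra at 42.9% (9 of 21 UMIs) in WT and 64.3% (9 of 14) in KO. The intervals, 21.8 to 66 and 35.1 to 87.2, overlapped each other. In WT the interval overlapped that of migrating NCCs by a narrow margin, and in KO it did not. Ednrb in arch mesenchymal NCCs was not above its erythroid level beyond counting error (log2 1.08, -0.02 to 2.08 in WT, and 0.27, -1.69 to 2.06 in KO). The Ednra share of erythroid cells was 24.4% (12.4 to 40.3) in WT.

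Erbb2 made up 13.3% (8.95 to 18.8) of the Erbb2 and Erbb3 UMIs of migrating NCCs in WT and 15.5% (10.5 to 21.8) in KO, and 23.7% and 17.1% in the epithelial cells without a class. It made up 77.9% (68.7 to 85.4) and 88.5% (79.2 to 94.6) in cells with 6 cardiac markers, and 66.7% and 78.3% in endothelial cells. With 3 cardiac markers it was 58.1% (52 to 63.9) and 60.6% (54.3 to 66.8), beside 54.5% and 50% in neural progenitors. In splanchnic mesoderm it was 80.4% (66.9 to 90.2) in WT and 62.5% (40.6 to 81.2) in KO. Erythroid cells stood at 58.6% (38.9 to 76.5) and 45.5% (16.7 to 76.6), which overlapped endothelial cells in both libraries. Erbb3 was near its erythroid level of 10.3 and 11.6 CPM in endothelial cells, at 10.9 and 8.63 CPM. In cells with 6 cardiac markers it was 15 and 8.11 CPM, so the high shares there went with little Erbb3. Erbb4, the other neuregulin receptor, had 115 of 168 WT UMIs and 111 of 151 KO UMIs in the cardiac class, at 26.9 and 24.7 CPM (log2 -0.12, -0.51 to 0.27). In cells with 6 cardiac markers it stood at 57.9 CPM in WT and 84.7 CPM in KO (log2 0.55, 0.12 to 0.98), so its direction between the libraries depended on the gate. It had 2 UMIs in WT and 1 in KO in migrating NCCs.

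**Figure D2:**
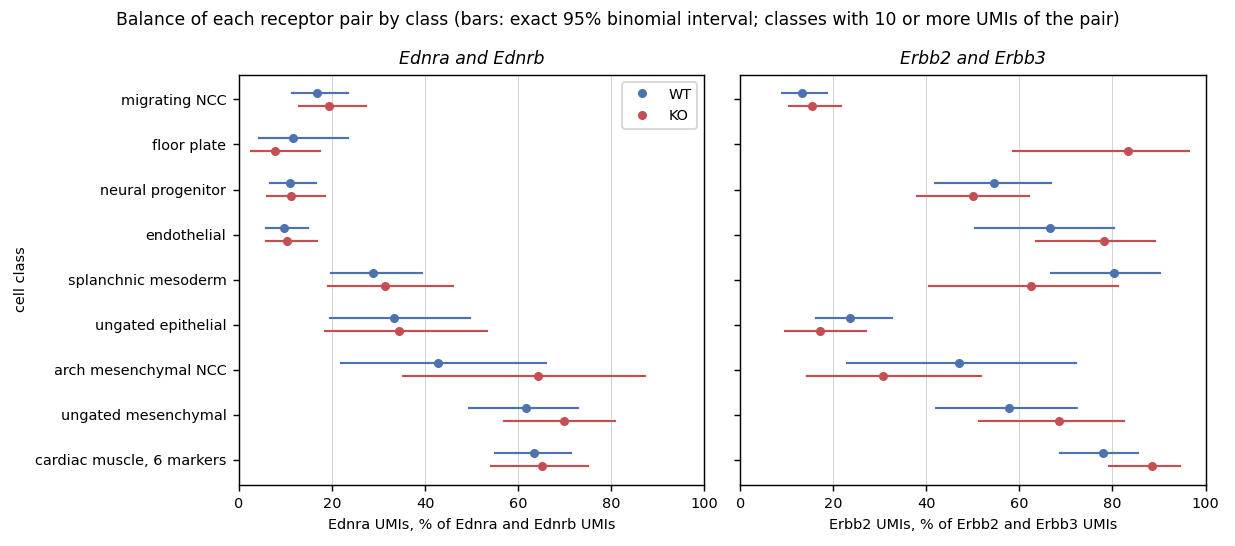
Share of a receptor pair's UMIs that came from the first receptor (x axes, percent from 0 to 100) in 9 cell groups (rows), for WT (blue) and KO (red). Points are shares and bars exact binomial intervals of 95%, for groups with at least 10 UMIs of the pair. Ednra is under 20% in migrating NCCs and over 60% in mesenchymal cells and cells with 6 cardiac markers. Erbb2 is under 16% in migrating NCCs and over 77% in cells with 6 cardiac markers.

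Between the libraries, the 7 genes differed little over all cells. As log2 of KO over WT, the values were 0.18 (-0.24 to 0.60) for Ret, -0.03 (-0.20 to 0.14) for Ednra, 0.22 (-0.08 to 0.53) for Edn1, -0.05 (-0.22 to 0.12) for Erbb2, -0.15 (-0.30 to 0.01) for Erbb3 and 0.19 (-0.07 to 0.45) for Nrg1. Ednrb alone had an interval that left out 0, at 70.8 CPM in WT and 55.9 CPM in KO (-0.34, -0.46 to -0.23). None of the 7 reached 1.5-fold in either direction, a size reached by 6.6% of the 13801 genes with at least 30 UMIs. The median gene stood at -0.06, and the median of the 7 at -0.03.

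In migrating NCCs, which belong to the Wnt1 lineage, 4 of the 7 genes had 30 UMIs. None of the 4 reached 1.5-fold, beside 13.6% of 6046 genes in that class, 5.84% higher and 7.77% lower in KO. Erbb3 stood at -0.16 (-0.49 to 0.16), Ednrb at -0.28 (-0.66 to 0.10), Ednra at -0.02 (-0.86 to 0.82) and Erbb2 at 0.09 (-0.73 to 0.92). Differences within these intervals were not detectable at this depth. Nrg1, with 9 UMIs in WT and 2 in KO, had the interval -5.32 to 0.20, and 4 of the 9 WT UMIs were in cells that held 2 epithelial genes.

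The lower Ednrb level in KO was seen beyond the crest. Of the 13 classes, 12 had less Ednrb in KO than in WT, among them endothelial and cardiac cells, which arise mostly outside the Wnt1 lineage. The ratio was -0.35 in cardiac muscle, both with 3 markers (-0.62 to -0.07) and with 6, where the interval included 0 (-1.05 to 0.32). It was -0.45 (-0.82 to -0.08) in neural progenitors, -0.31 (-0.65 to 0.04) in endothelial cells and -0.44 (-0.63 to -0.25) in the cells with no class. In erythroid cells Ednrb had 31 WT and 8 KO UMIs (-0.78, -2.11 to 0.37). Floor plate was the exception (0.31, -0.27 to 0.90). In arch mesenchymal NCCs Ednrb had 12 UMIs in WT and 5 in KO (-1.59, -3.45 to 0.02). A difference between the genotypes and a difference between 2 single libraries cannot be told apart here.

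**Figure D3:**
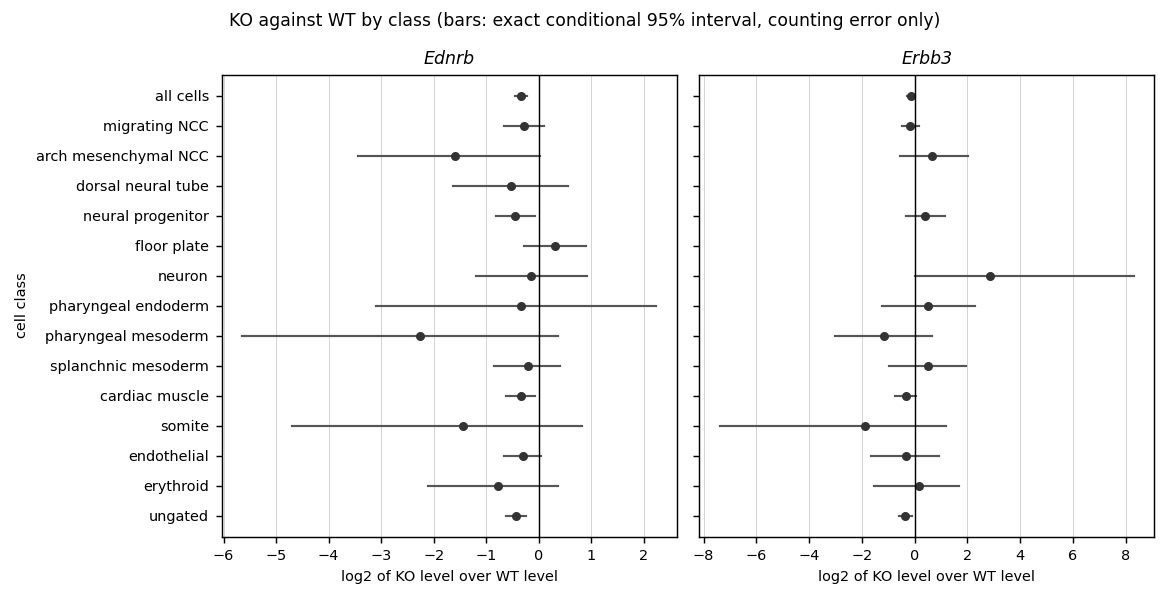
Log2 of the KO level over the WT level (x axes) of Ednrb and Erbb3 over all cells, in the 13 classes and in cells with no class (rows). Points are ratios and bars exact conditional intervals of 95%. A class with at most 3 UMIs in each library has no point. Ednrb lies below 0 in 12 of 13 classes, and Erbb3 lies on both sides of 0.

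For no other gene of the 7 were more than 9 classes lower in KO. Erbb3 was lower in KO in 5 of the 13 classes and Ednra in 9. In the cells with no class Erbb3 was lower too, with 337 UMIs in WT and 242 in KO (-0.34, -0.59 to -0.10). Among neuron-like cells Erbb3 had 1 UMI in WT and 9 in KO (2.86, 0.00 to 8.31), the single class with an interval above 0 for any of the 7 genes. Edn1 in pharyngeal mesoderm-like cells stood at -0.47 (-1.47 to 0.56), the 1 gene of the set with 30 UMIs there, beside a background of 20.2% of genes at 1.5-fold in that class, 10.6% higher and 9.61% lower. Its sign depended on the setting, at 1.00 with thinned cells and 0.30 without the most detected marker. Ednrb in floor plate was likewise the 1 gene of the set with 30 UMIs, beside 17.6%, 9.1% higher and 8.54% lower. In pharyngeal endoderm none of the 7 had 30 UMIs, and the background was 20.3%, 8.97% higher and 11.3% lower.

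After thinning, 4 of 58 WT and 1 of 46 KO migrating NCCs with Erbb3 also held Erbb2, against 5 of 193 and 9 of 155 without Erbb3. Ednrb was held by 4 of 9 WT and 2 of 8 KO cells with Ednra (44.4%, 13.7 to 78.8, and 25%, 3.19 to 65.1), against 39 of 242 and 28 of 193 without it. Among cells with Erbb3, 8 of 58 and 6 of 46 held Ednrb, against 35 of 193 and 24 of 155 without it. Not thinned, 14 of 23 WT (60.9%, 38.5 to 80.3) and 13 of 23 KO cells with Ednra (56.5%, 34.5 to 76.8) held Ednrb, against 35.2% (29.1 to 41.8) and 34.8% (27.9 to 42.3) of those without it, with depth not held equal. All these intervals overlapped, and Ret was held by only 3 WT and 2 KO cells, so neither joint nor separate use of the receptors could be read at this depth.

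Other genes of the 3 pathways were taken from 7 lists with 55 genes, of which 50 were measured and 44 had at least 30 UMIs. Of the 44, 3 were at least 1.5-fold higher in KO, beside 1.71% of all genes, and 2 were at least 1.5-fold lower, beside 4.89%. Their median log2 ratio was -0.10, against -0.06 for all genes.

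The 3 higher genes, Dlx3, Dlx5 and Dlx6, all belong to the list of genes that Ednra signals are known to turn on in the pharyngeal arches. Dlx5, a homeobox gene of the lower jaw, had 160 UMIs in WT and 223 in KO (0.61, 0.31 to 0.92). Dlx6, its neighbour and partner, had 81 and 119 (0.69, 0.27 to 1.11), and Dlx3 had 64 and 95 (0.70, 0.23 to 1.18). In the arch crest itself the few UMIs did not settle a direction. In arch mesenchymal NCCs Dlx3 had 2 UMIs in WT and 6 in KO (1.26, with an interval that included 0), Dlx5 had 13 UMIs in WT and 15 in KO (-0.12, -1.29 to 1.07), and Dlx6 had 15 and 13 (-0.54, -1.73 to 0.64). In the cells with no class Dlx5 had 84 and 110 UMIs (0.52, 0.10 to 0.95), and in endothelial cells 2 and 9. Of the cells with no class, those with 2 epithelial genes had 26 and 32 Dlx5 UMIs, at 35.8 and 51.4 CPM. Dlx3 had 14 and 8 UMIs in them, and 3 and 8 in surface ectoderm-like cells, at 46.5 and 61.8 CPM. These genes were thus not read as arch crest signal alone.

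Hand2, the other main target in this list, stood at -0.33 (-0.45 to -0.20) over all cells and at -0.62 (-1.60 to 0.35) in arch mesenchymal NCCs, from 22 WT and 18 KO UMIs. In migrating NCCs it had 10 and 2 UMIs (-2.23, -5.46 to 0.0032). In endothelial cells it was higher in KO (0.46, 0.08 to 0.84), and its cardiac value of -0.62 (-0.83 to -0.41) was -0.09 (-0.39 to 0.20) with 6 markers. Hand1 was lower in KO, with 395 and 190 UMIs (-0.92, -1.18 to -0.67). In arch mesenchymal NCCs it had 5 UMIs in WT and 0 in KO, and the same in migrating NCCs. Hand1 is also a gene of heart and splanchnic mesoderm, and 71 of its WT UMIs and 12 of its KO UMIs lay in splanchnic mesoderm-like cells. Within that class its level was 67.9 CPM in WT and 18.2 CPM in KO (-1.90, -2.92 to -1.01). It was lower in cardiac muscle (-0.69, -1.10 to -0.27), where with 6 markers the interval included 0 (-0.29, -0.85 to 0.25), and in cells with no class (-0.82, -1.22 to -0.44) as well. The median of the 5 genes tested in this list was 0.61.

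Among the other endothelin genes, Edn3, the main ligand of Ednrb, had 170 UMIs in WT and 216 in KO (0.48, 0.18 to 0.78). Its highest class was pharyngeal endoderm, with 3 and 7 UMIs. Ece1, the enzyme that cuts endothelin precursors to their active form, had 1227 and 913 UMIs (-0.29, -0.42 to -0.17). Endothelial cells held the most, at 243 CPM in WT and 199 CPM in KO, and endocardial cells 274 and 226 CPM, where Ednrb was high too. Ece2 had only 28 and 23 UMIs.

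GDNF family ligands and coreceptors were scarce, as Ret was. Nrtn, a ligand of this family, had 193 UMIs in WT and 119 in KO (-0.56, -0.91 to -0.23). Erythroid cells had its highest level, with 34 and 10 UMIs, and these were 4.67% of WT and 2.1% of KO cells. The part of that difference in the Nrtn value was not tested. Gfra1 had 75 and 81 UMIs (0.25, -0.23 to 0.72) and Gfra2 61 and 53 (-0.07, -0.63 to 0.49). Gfra4, named after its values were seen as the second gene 1.5-fold lower, had 56 and 29 (-0.82, -1.52 to -0.14). The median of the 7 tested was -0.55.

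In the ErbB lists no gene with at least 30 UMIs reached 1.5-fold over all cells. Nrg2, with only 17 UMIs in WT and 9 in KO, stood at -0.78 (-2.13 to 0.46). Erbb4 stood at -0.02 (-0.35 to 0.31), Hbegf, an EGF family ligand highest in endothelial cells, at -0.23 (-0.50 to 0.05), and Tgfa at -0.39 (-0.71 to -0.07). Of the genes for shedding of neuregulin and for feedback, Adam10, a protease that releases membrane-bound ligands, stood at -0.21, Bace1, which cuts neuregulin, at 0.11, and Errfi1, an inhibitor of ErbB kinases, at 0.35 (0.22 to 0.48). In migrating NCCs Errfi1 had 30 UMIs in WT and 47 in KO (0.74, 0.05 to 1.45), in a class where 13.6% of genes differed by at least 1.5-fold. It was higher in KO beyond the crest as well, in cardiac muscle with 3 markers (0.50, 0.18 to 0.81; with 6 markers 0.16, -0.60 to 0.90) and in cells with no class (0.26, 0.07 to 0.45).

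Downstream, the adaptors Shc1 and Grb10 stood at -0.07 and 0.03 and Gnaq, a G protein subunit used by endothelin receptors, at 0.22. Of the genes that follow MAP kinase activity, Spry2, a feedback inhibitor, was lower in KO at 537 against 409 CPM (-0.39, -0.43 to -0.35), while Spred1 and Etv5 stood at 0.02 and 0.07. Spry2 was -0.16 (-0.38 to 0.06) in migrating NCCs and -0.54 (-0.81 to -0.27) in arch mesenchymal NCCs, from 245 WT and 212 KO UMIs. It was also lower in cardiac muscle (-0.60, -0.68 to -0.51, and -0.65, -0.78 to -0.52 with 6 markers) and endothelial cells (-0.70, -0.92 to -0.48), so its lower level too was seen beyond the crest.

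The genes with the most similar profile to each of the 7 were sought over 26 points, the 13 classes in both libraries, among 10416 genes with at least 200 UMIs. Points of 1 library share that library, and many classes rest on few UMIs of the gene, so these values are a description. Erbb2 had the closest match, Plbd2 (Pearson r of log2 levels 0.89), then Mical3 (0.88) and Atg12 (0.86). Ednra was closest to Arhgef40 (0.85), Tcta (0.80) and Hs1bp3 (0.80). For Erbb3 they were Rgcc (0.75), Polr2f (0.75) and Cdk18 (0.74), and for Ednrb Cpne2 (0.74), Socs4 (0.73) and Psap (0.73). For Nrg1 they were Ppp1r11 (0.75), Strn4 (0.74) and Trib1 (0.73), for Edn1 Rab3gap1 (0.74), Arhgef5 (0.73) and Sh3kbp1 (0.73), and for Ret they included Ercc6 (0.73) and Mcoln3 (0.72).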

How the data were processed

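Libraries were made with a 10x 3′ kit and counted with Cell Ranger 1.3.1; per the labels, the build is mm10. The authors removed mitochondrial and ribosomal UMIs and filtered cells and genes. Per their methods doublets were removed with a caller and a depth limit; whether before deposit is not stated, and no caller was run here. The stated alignment target is a human genome with ZsGreen1 added, whereas the deposited symbols are of mouse. The deposited score of each gene and cell is the square root of the count divided by the cell's total and multiplied by 1641. Squaring and dividing by the cell's smallest nonzero square gave UMI counts, 100% of them whole within 0.01.

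UMIs were summed per class and library with Python 3.11.15, numpy 2.4.6 and scipy 1.17.1, and the ratio and its interval were tested on simulated data. A cell joined a class with at least 2 distinct markers (cardiac muscle 3), and the class with strictly most where several qualified. Levels per UMI were not divided by gene length, as 3′ reads do not scale with it. Counts of 3 or fewer in both libraries gave no ratio. Shares carry exact Clopper-Pearson intervals. The 7 genes, the markers and the pathway lists were chosen with earlier results of these data known. Named list genes were the 3 with most UMIs of each list and those of at least 100 UMIs past 1.5-fold, and the 3 most similar genes by Pearson correlation of log2(CPM + 1), markers left out. The stricter cardiac gate, the epithelial and mesenchymal groups, the receptor shares and the WT class make-up weighting were added after seeing the data. Edn2, Dlx4, Areg, Btc and Ereg of the lists, and the markers Gdf7 and Nkx3-2, were not analysed here. Some marker and similar genes, and a subset of migrating NCCs, are not reported here. Coordinates are from GENCODE vM21 (GRCm38).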

Additional observations from a re-analysis of the deposited data

How the results depend on the processing

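Of 373 values recomputed under another setting, 327 stayed within their interval or count range, 44 moved, and 2 that had been past 1.5-fold changed sign. The values rest on 1 library per genotype, and thin classes limit them too: Ret in pharyngeal endoderm, Nrg1 in pharyngeal mesoderm and Erbb2 in floor plate rest on under 30 UMIs. No paired analysis was possible because each genotype has 1 library and the results come from no test. The 2 were for Ret: pharyngeal endoderm over migrating NCC in WT was 1.88 when cells were thinned to 1000 UMIs and then gated, and 0.38 without the deepest 10% of cells, against a reported -1.57 that rests on 1 UMI in the endoderm class. The cause was not tested. Of 200 recomputed log2 ratios 33 changed sign in all, 17 of them for Ednra and 0 for Erbb3.

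Thinning before gating moved the log2 ratio of KO over WT to -0.47 for Ednrb and -0.34 for Erbb3 over all cells and to 1.00 for Edn1 in pharyngeal mesoderm. It moved the leading over the next class to -0.78 for Ednra in WT, 0.0040 for Ednrb in KO and -1.23 for Erbb2 in KO. It also moved shares of cells with a UMI, most of them downward. In WT and KO these became 2.47% and 4.08% for Ednra and 27.8% and 27.6% for Erbb3 in migrating NCCs, 17.7% and 20.9% for Ednrb and 0% and 3.49% for Erbb2 in floor plate, and 4.55% and 6.06% for Edn1 in pharyngeal mesoderm, with 0% for Nrg1 there in WT and 0% for Ret in pharyngeal endoderm in KO. Genes of all lists lower in KO became 4.

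Without the deepest 10% of cells, Ednra in migrating NCCs became -0.97 for KO over WT, -0.53 for migrating NCC over cardiac muscle in KO, and a share of 5% of cells in KO. With 1 more distinct marker, shares became 0% for Ret in pharyngeal endoderm in KO, 40.4% for Ednrb in floor plate in WT, 51.8% for Erbb3 in migrating NCCs in WT and 23.1% for Nrg1 in pharyngeal mesoderm in KO, and the leading over the next class for Edn1 in KO became 2.74. Without the most detected marker of each class, the leading over the next class became -0.13 for Ednrb in KO, -1.95 for Erbb2 in WT and 1.05 for Erbb3 in KO. The share of migrating NCCs with Erbb3 that held Erbb2 became 0% in both libraries with 1 more marker, without the most detected marker or without Sox10; not thinned it was 12.6% in KO. Not thinned, Ednrb in cells with Erbb3 was 42.5% in WT and 48.3% in KO. In arch mesenchymal NCCs with 1 more marker, Erbb2 in cells with Erbb3 became 0% in WT and Ednrb in cells with Erbb3 0% in KO. With no UMI minimum 5 list genes were lower, and 1318 genes were higher and 2225 lower in KO. The settings added after seeing the data, the class make-up of WT (-0.37 for Ednrb over all cells) and a cardiac gate of 6 markers, moved none of the recomputed values by more than its interval. Under the 6-marker gate these were values of each gene's leading class. Levels and shares of the cardiac class itself are outside them and did move with its gate: the share of Ednra among endothelin receptor UMIs in WT went from 42.3% to 63.4% and that of Erbb2 among Erbb2 and Erbb3 UMIs from 58.1% to 77.9%.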
